A study of Danio rerio with 16 samples.

Results

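The exocrine pancreas enzyme genes are 10 genes for digestive enzymes, chosen by symbol, and they were followed through 16 liver libraries of zebrafish. They are amy2a, cel.1, cel.2, cpa1, ctrb.1, ctrl, ela2l, ela3l, prss1, and prss59.1, and all 10 were found, among 33724 genes above 0 in at least 1 library. Their choice also rested on their joint variation from liver to liver, as RNA from pancreatic tissue in a liver sample would show. That variation is therefore described here and not tested. The question put to the genes was whether they follow the type of fish or the diet.

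RNA was sequenced from the liver of HBx,Src(p53-), Src(p53-), and HBx(p53-) fish and of WT fish, which were of the AB strain, with 4 libraries for each type. The paper names no background strain for the transgenic lines, so a difference in strain from WT could not be tested. The transgenic types carry HBx (a hepatitis B virus protein), Src (a tyrosine kinase), or both under the fabp10a promoter, which is active in hepatocytes, on a p53 mutant background, and WT fish carry none of these, so that each difference from WT holds p53 and the transgene together. Fish aged 3 months at the start were fed for 8 weeks on a normal diet (NOR, Artemia at 0.5 ml 1 time a day), by overfeeding (DIO, Artemia at 2 ml 3 times a day), or on a high-fat diet (FAT, the NOR ration plus high-fat food). HBx,Src(p53-) fish gave 2 DIO and 2 NOR libraries, and each of the other types gave 1 DIO, 1 FAT, and 2 NOR libraries, so that DIO and FAT together, the obesity diet, stand as 2 libraries against 2 in every type. The liver was taken out, then the other organs, and part of each liver was used for RNA. The paper describes no step to separate pancreatic tissue from it. Expression is given as FPKM, sequenced fragments per kilobase of transcript, scaled for library size. The study lists the reads of each library, but the number of reads behind a single value is not given.

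Acinar cells of the exocrine pancreas make digestive enzymes, store most of them as inactive proenzymes, and release them into the gut. Trypsin activates the other proteases there, chymotrypsins and elastases cut proteins after different residues, carboxypeptidases trim their ends, amylase cuts starch, and bile salt-activated lipase cuts lipid esters. In adult zebrafish the exocrine pancreas is not a compact organ, and its tissue lies spread through the mesentery along the gut and close to the liver. The liver itself can express some such genes, amylase in mice for one.

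The enzyme genes were low and very uneven. Their summed FPKM was 411.8 in the HBx,Src(p53-) DIO library 1 and 6.11 in the WT DIO library, the highest and the lowest of the 16, a ratio of 67.4. The FPKM summed over all genes of a library differed by at most 1.50 times between libraries. The 10 genes together held between 0.000666% and 0.0398% of the FPKM of a library. For scale, fabp10a, a fatty acid binding protein of hepatocytes, had between 958.1 and 3312 FPKM in every library, and the 10 enzyme genes summed to between 0.340% and 32.6% of it. In bulk liver RNA, a change in the number of cells of a type and a change in the RNA per cell cannot be told apart.

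By type of fish, the sums were 411.8 and 45.1 in the DIO libraries and 83.6 and 283.7 in the NOR libraries of HBx,Src(p53-) fish. Src(p53-) fish had 55.5 on DIO, 85.6 on FAT, and 9.08 and 38.9 on NOR. HBx(p53-) fish had 92.2 on DIO, 323.5 on FAT, and 32.5 and 151.7 on NOR, against 6.11 on DIO, 28.6 on FAT, and 9.74 and 6.28 on NOR in WT. All 8 libraries of fish with HBx were above all 4 WT libraries, while the Src(p53-) NOR library 1 lay among the WT libraries.

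**Figure D1:**
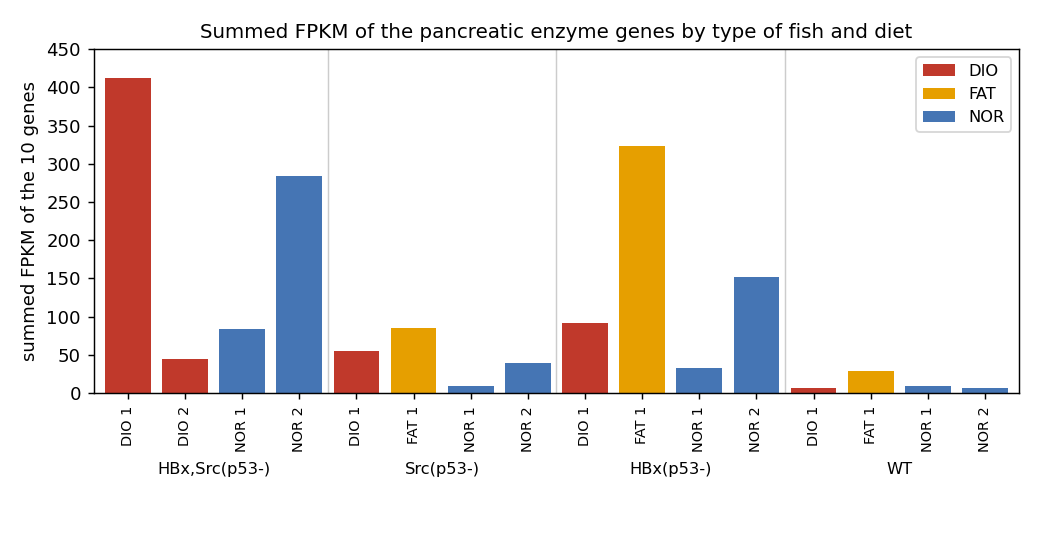
Summed FPKM of the 10 enzyme genes (y axis) in each of the 16 libraries (x axis, 1 bar a library), grouped by type of fish and coloured by diet. The 3 highest libraries, at 411.8, 323.5, and 283.7 FPKM, came from 3 different diets, and the 4 WT libraries were at or below 28.6 FPKM.

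Libraries of the same type and diet differed by several-fold. In HBx,Src(p53-) fish on DIO, library 1 was above library 2 for 10 of the 10 genes, each by at least 2-fold, with a median difference of 2.52 on the log2(FPKM + 1) scale and a sum 9.13 times as high. Among the 12319 genes that averaged at least 1 FPKM, 14.7% differed by 2-fold or more between these 2 libraries. On NOR, library 2 was above library 1 for 10 of 10 genes in HBx,Src(p53-), 10 of 10 in HBx(p53-), and 9 of 10 in Src(p53-) fish. The sums differed by 3.39, 4.66, and 4.29 times. A 2-fold difference or more was found for 9, 8, and 6 of the 10, against 30.4%, 25.8%, and 21.1% of the 12319 genes. The median of library 1 minus library 2 was -1.67, -1.66, and -1.08, against 0.145, -0.269, and -0.431 for the 12319 genes. In WT fish on NOR, 6 genes were higher in library 1 and 3 in library 2, and the sums differed by 1.55 times. There 2 of the 10 differed by 2-fold or more, against 37.6% of the 12319 genes. All 2-fold counts in these pairs are of FPKM + 1, which shrinks the ratios of genes near 0. In WT fish, for example, prss1 at 1.80 and 0.795 FPKM was not counted, so the low WT counts do not show an even pair. The spread between libraries of 1 group thus ran through the whole set in 4 of 5 pairs, with nearly all of its genes on the same side.

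The trypsins are prss1, trypsin, and prss59.1, a trypsin-like serine protease. The like-named gene prss59.2 is a neighbour of prss59.1 in the gene order, and whether the pair shares reads was not tested. For prss59.1, HBx,Src(p53-) fish had 108.4 and 9.85 FPKM on DIO and 17.4 and 66.2 on NOR. The Src(p53-) libraries had 8.29 on DIO, 11.7 on FAT, and 0.499 and 6.04 on NOR. The HBx(p53-) libraries had 13.2 on DIO, 49.2 on FAT, and 5.49 and 13.8 on NOR, against 0.522 on DIO, 5.11 on FAT, and 1.84 and 0.313 on NOR in WT. The 8 libraries with HBx all lay above the 4 WT libraries for prss59.1. For prss1, HBx,Src(p53-) fish had 61.4 and 5.48 FPKM on DIO and 8.38 and 29.7 on NOR. The level in Src(p53-) fish was 6.48 on DIO, 6.34 on FAT, and 0.608 and 6.04 on NOR. The level in HBx(p53-) fish was 8.06 on DIO, 36.4 on FAT, and 2.84 and 17.5 on NOR, against 1.09 on DIO, 3.64 on FAT, and 1.80 and 0.795 on NOR in WT. The HBx(p53-) NOR library 1 fell below the WT FAT library for prss1, so that these types overlapped, and the Src(p53-) NOR library 1 was the lowest of all 16.

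The chymotrypsins are ctrb.1, a chymotrypsinogen B, and ctrl, chymotrypsin-like. For ctrb.1, HBx,Src(p53-) fish had 84.9 and 5.95 FPKM on DIO and 21.9 and 73.3 on NOR. Src(p53-) livers had 12.2 on DIO, 20.9 on FAT, and 0.387 and 12.5 on NOR. HBx(p53-) livers had 16.7 on DIO, 89.2 on FAT, and 5.25 and 26.5 on NOR, against 2.51 on DIO, 8.26 on FAT, and 2.07 and 1.24 on NOR in WT. This gene had the highest mean of the 10, at 24.0 FPKM over the 16 libraries, and the WT FAT library lay above the lowest library of each transgenic type. For ctrl, HBx,Src(p53-) fish had 51.5 and 8.09 FPKM on DIO and 8.85 and 15.8 on NOR. In Src(p53-) fish it stood at 4.39 on DIO, 8.28 on FAT, and 1.1 and 3.54 on NOR. In HBx(p53-) fish it stood at 11.5 on DIO, 58.8 on FAT, and 5.89 and 19.2 on NOR, against 1.04 on DIO, 1.80 on FAT, and 2.27 and a listed 0 on NOR in WT. All 8 libraries with HBx were above all WT libraries for ctrl.

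Of the elastases, ela2l was the more abundant, with a mean of 16.4 FPKM, against 2.08 FPKM for ela3l. For ela2l, HBx,Src(p53-) fish had 30.0 and 10.9 FPKM on DIO and 9.89 and 46.7 on NOR. The Src(p53-) libraries had 12.2 on DIO, 32.8 on FAT, and 2.23 and 5.70 on NOR. The HBx(p53-) libraries had 18.1 on DIO, 51.8 on FAT, and 6.65 and 24.3 on NOR, against 0.450 on DIO, 5.61 on FAT, and 1.37 and 3.53 on NOR in WT. Again both types with HBx lay above WT without overlap. For ela3l, the range was 0.899 to 8.09 FPKM in HBx,Src(p53-), 0.0969 to 1.72 in Src(p53-), 0.812 to 6.48 in HBx(p53-), and 0.0697 to 0.666 in WT. The only carboxypeptidase of the set, cpa1, was low everywhere, with 0.321 to 4.05 FPKM in HBx,Src(p53-), 0.0679 to 1.08 in Src(p53-), 0.386 to 3.44 in HBx(p53-), and 0.0706 to 0.656 in WT.

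The bile salt-activated lipases cel.1 and cel.2 are neighbours on the chromosome, in the gene order of assembly GRCz12tu, and how reads that fit both were shared is not given in the sources used here. For cel.2, HBx,Src(p53-) fish had 38.8 and 0.844 FPKM on DIO and 11.7 and 26.9 on NOR. The level in Src(p53-) fish was 2.69 on DIO, a listed 0 on FAT, and a listed 0 and 1.37 on NOR. The level in HBx(p53-) fish was 15.3 on DIO, 18.9 on FAT, and 1.67 and 9.60 on NOR, against a listed 0 in all 4 libraries of WT. This gene was therefore listed above 0 in all 8 libraries with HBx and in 2 of the other 8. Its differences from WT, which enter the ranges and medians below, depend on the pseudocount of 1. Its neighbour cel.1 was lower, with 0.171 to 4.66 FPKM in HBx,Src(p53-), 0.0406 to 0.788 in Src(p53-), 0.342 to 2.58 in HBx(p53-), and 0 to 0.335 in WT.

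The amylase gene amy2a followed the others least closely. HBx,Src(p53-) fish had 19.9 and 2.66 FPKM on DIO and 2.87 and 13.4 on NOR. Src(p53-) livers had 7.28 on DIO, 2.05 on FAT, and 4.05 and 2.22 on NOR. HBx(p53-) livers had 6.07 on DIO, 6.69 on FAT, and 3.23 and 34.4 on NOR, against a listed 0 on DIO, 2.50 on FAT, and 0.151 and 0.185 on NOR in WT. It peaked in the HBx(p53-) NOR library 2, where none of the other 9 genes did. There its FPKM came to 32.5 per 100 FPKM of the 6 serine proteases together, against 2.29 in the HBx(p53-) FAT library and 5.79 in the HBx,Src(p53-) DIO library 1. In the Src(p53-) NOR library 1, where 9 of the 10 genes were among their 4 lowest libraries, amy2a had 82.4 FPKM per 100 of the proteases. A second amylase gene on another chromosome, amy2al2, peaked at 13.9 FPKM in the HBx(p53-) NOR library 2 as well, yet was listed at 0 in the Src(p53-) NOR library 1.

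**Figure D2:**
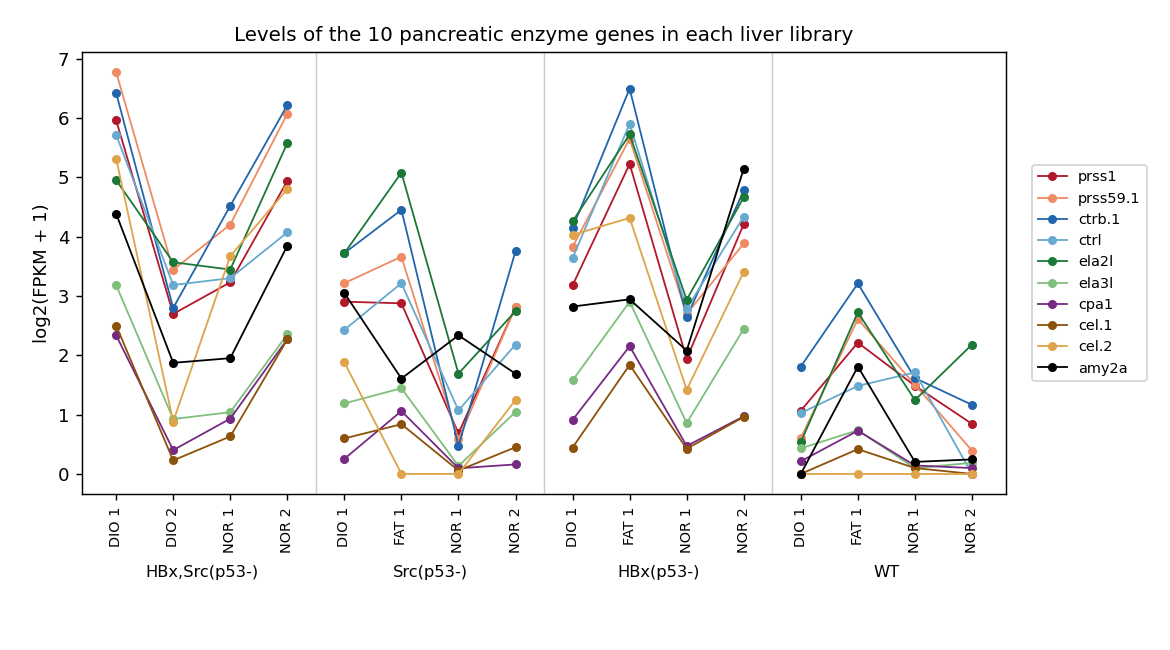
log2(FPKM + 1) of each of the 10 enzyme genes (y axis) in the 16 libraries (x axis), with 1 colour a gene and lines that only join the libraries of a type. Most lines rise and fall together, with amy2a (black) apart in the Src(p53-) libraries and highest of all genes in the HBx(p53-) NOR library 2.

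The genes varied together over the libraries, as their choice implies. Over the 45 pairs of genes and 16 libraries, Pearson's r of log2(FPKM + 1) ran between 0.65 (amy2a and cpa1) and 0.97 (prss1 and prss59.1), with a median of 0.88, and Spearman's rho ran between 0.60 and 0.98, with a median of 0.89. The genes are counted in the same libraries and were chosen for their joint variation, so these values carry no p. Without the HBx,Src(p53-) DIO library 1 and the HBx(p53-) FAT library, which lay farthest from the median, the median r was 0.83 and the lowest 0.59. With the mean of each type of fish taken away, a step added after the values were seen, the median r was 0.81 and 45 of 45 pairs were above 0. Within the 8 libraries with HBx the median was 0.86, and within the 8 libraries of Src(p53-) and WT it was 0.72, with 44 of 45 pairs above 0.

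Against the mean of the other 9, prss1 had the highest r, 0.98, and amy2a the lowest, 0.79. The gene that departed least from the mean of the others was also prss1, with a standard deviation of the difference of 0.34 on the log2 scale, against 0.92 for amy2a and 1.03 for cel.2. All 10 genes were among their 4 highest libraries in the HBx,Src(p53-) DIO library 1 and in the HBx,Src(p53-) NOR library 2, and 9 of 10 in the HBx(p53-) FAT library. At the other end, 10 of 10 were among their 4 lowest in the WT NOR library 2, and 9 of 10 in the WT DIO library, the WT NOR library 1, and the Src(p53-) NOR library 1. Most of the genes thus ordered the libraries in much the same way, as their choice implies. The rho with the mean of the other 9 was lowest for amy2a (0.73) and cel.2 (0.86), and highest for prss59.1 (0.98). Libraries tied at a listed 0 all count among the lowest, as 6 do for cel.2. In the 4 libraries where the sum passed 100 FPKM, ctrb.1 held between 17.4% and 27.6% of it, prss59.1 between 9.08% and 26.3%, and amy2a between 2.07% and 22.7%.

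The mean of other genes of acinar cells followed much the same order. Of 20 further acinar genes listed, 7 were matched, and 3 of these averaged at least 1 FPKM. The mean of their levels had an r of 0.98 with the mean of the 10 enzyme genes over the 16 libraries. It was also 0.98 without the 2 farthest libraries. On its own, an r of at least 0.8 was reached by 4 of the 7. Their summed FPKM was between 11.9 and 78.9 in HBx,Src(p53-), 0.0713 and 12.1 in Src(p53-), 8.90 and 36.0 in HBx(p53-), and 0.366 and 3.69 in WT. The chymotrypsinogen genes ctrb.2 and ctrb.3, which stand in a row with ctrb.1 in the gene order, had an r of 0.93 and 0.95 with the members, and ctrb.2 was listed at 0 in all 4 WT libraries. Whether they share reads with ctrb.1 was not tested. The entry sycn.2, which carries the name of syncollin, a zymogen granule protein in mammals, had an r of 0.89 and was highest, at 33.8 FPKM, in the HBx,Src(p53-) DIO library 1. The carboxypeptidase gene cpa4 and the selenoprotein gene selenoe stayed below 1 FPKM in every library, with r of 0.79 and 0.73.

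The 4 named genes closest in pattern carry names of pancreatic products. Among them, ctrb.3, sycn.2, and amy2al2 belong to the further acinar genes described above, so they add no separate result. Among 12310 other genes that averaged at least 1 FPKM, the median r with the mean of the 10 enzyme genes was 0.03, the 99th percentile was 0.60, and 12 genes, or 0.0975%, reached 0.8. Of these 12, 6 have a symbol, and they are cela1.6 and cela1.3, which are pancreatic elastase 1 genes, ctrb.3, sycn.2, amy2al2, and si:ch211-240l19.5. The closest was cela1.6, with an r of 0.98 and a rho of 0.99. It had 32.9 and 4.38 FPKM on DIO and 6.20 and 15.3 on NOR in HBx,Src(p53-) fish, and 0.622 on DIO, 2.16 on FAT, and 1.24 and 0.413 on NOR in WT fish. The next named genes were si:ch211-240l19.6 at 0.75, cd81a, a tetraspanin, at 0.74, si:ch211-240l19.8 at 0.72, and xpc, a DNA repair gene, at 0.71. All of these genes were picked for their likeness over the same 16 libraries.

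The transcription factors of acinar cells did not share the order. Of 8 listed, 4 were matched. The gene for the acinar master regulator Ptf1a was listed at 0 in all 16 libraries. The gene bhlha15, for the secretory cell factor Mist1, had an r of 0.02 with the enzyme genes and peaked at 7.97 FPKM in the HBx,Src(p53-) NOR library 1. The r was 0.11 for gata4 and 0.13 for xbp1, factors that are also active in liver, with means of 33.5 and 1098 FPKM.

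Markers of other tissues were read in the same libraries. Of the 15 endocrine pancreas genes matched, 9 were above 0 anywhere, and neurod1, pax6b, isl1a, nkx2.2a, arxa, and insb were listed at 0 in all libraries. Their summed FPKM was 1.38 to 6.55 in HBx,Src(p53-), 0.831 to 3.13 in Src(p53-), 0.0991 to 1.90 in HBx(p53-), and 0 to 3.95 in WT, and their r with the enzyme genes was 0.28, and -0.01 without the 2 libraries farthest from the median of the enzyme genes. Insulin (ins) was listed above 0 in 3 libraries and highest, at 3.55 FPKM, in the HBx,Src(p53-) DIO library 1, which was also highest for 6 of the 10 enzyme genes. Glucagon (gcga) peaked at 4.93 FPKM in the HBx,Src(p53-) NOR library 1, the seventh library in the order of the enzyme genes. The only endocrine gene that averaged at least 1 FPKM was pdx1, at 1.17 FPKM, with an r of -0.33. This gene peaked at 3.63 FPKM in the WT NOR library 1. Of the 9 endocrine genes above 0, 7 had an r above 0. The r was 0.23 for 11 hepatocyte genes, 0.34 for intestine, 0.31 for adipocytes, 0.03 for red blood cells, and 0.38 for ovary. It was 0.31 for endogenous protease inhibitors, with 7 genes matched and 6 above 0. Of 11 intestine genes matched, 7 were above 0 and 2 averaged at least 1 FPKM. Of 7 adipocyte genes matched, 5 were above 0. Each r was taken for the mean log2(FPKM + 1) of the genes listed above 0. Without the same 2 libraries, it was 0.42 for hepatocyte genes, 0.55 for intestine, 0.34 for adipocytes, 0.15 for red blood cells, 0.28 for ovary, and 0.29 for the inhibitors. All 8 ovary genes matched, of 11 listed, were above 0 somewhere, and their summed level was 3.08 to 25.2 FPKM in HBx,Src(p53-), 0.0222 to 0.834 in Src(p53-), 0.204 to 0.674 in HBx(p53-), and 0.139 to 0.861 in WT. The 4 HBx,Src(p53-) libraries thus had the highest ovary sums, and the part of these genes in the results was not tested. The paper used fish of both sexes, and the sample labels used here do not give the sex. A difference in sex between types was therefore not tested.

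The heart and muscle list had an r of 0.71 (0.63 without the 2 farthest libraries), and myl7 on its own one of 0.70. Of its 10 genes, 7 were listed at 0 in every library, and myl7, the gene of a cardiac myosin light chain, held nearly all of the rest. It had between 4.87 and 19.7 FPKM in HBx,Src(p53-), between 0 and 0.0881 in Src(p53-), between 4.12 and 15.5 in HBx(p53-), and between 0 and 0.581 in WT. Thus myl7 separated the 8 libraries with HBx from the other 8 without overlap, which 0 of the 10 enzyme genes did, and 0.0623% of all genes. It differed from WT in HBx,Src(p53-) (log2 3.06, adjusted p = 0.00375) and in HBx(p53-) (log2 2.89, adjusted p = 0.00516, both by limma), and its part in the differences of the enzyme genes was not tested.

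**Figure D3:**
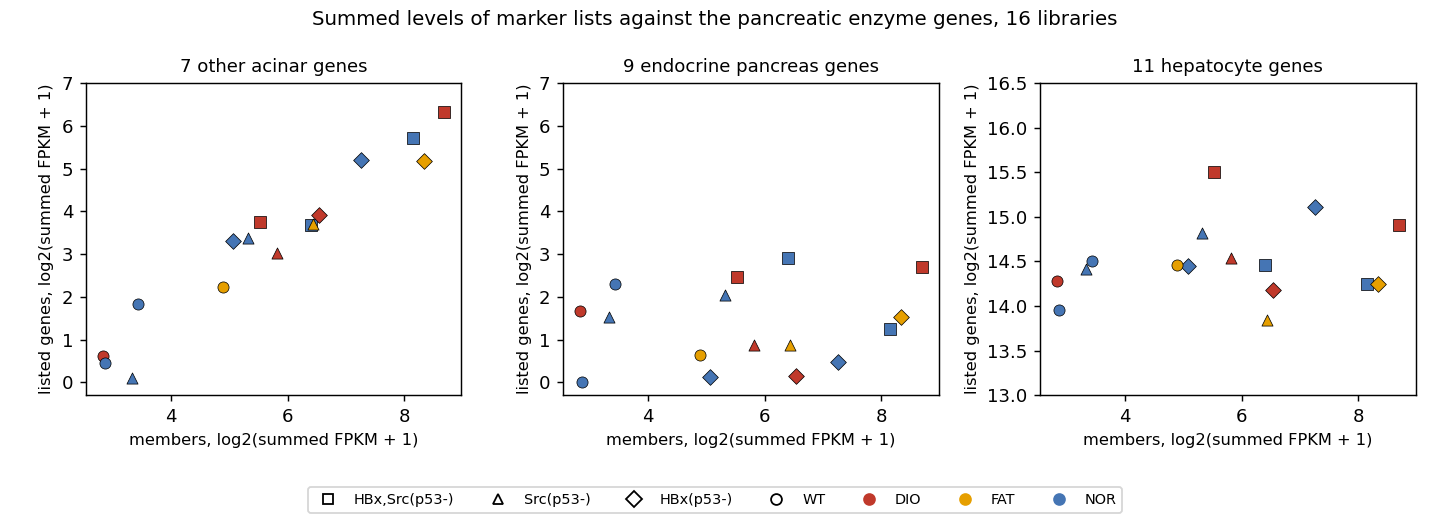
Each point is 1 of the 16 libraries, with the summed FPKM of the 10 enzyme genes on the x axis and of a marker list on the y axis, both as log2(sum + 1), with shapes for the type of fish and colours for the diet. The 7 other acinar genes rise along with the enzyme genes, while the 9 endocrine pancreas genes and the 11 hepatocyte genes are more scattered (r of the mean levels 0.98, 0.28, and 0.23).

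Between types of fish, all 10 fitted differences of HBx,Src(p53-) minus WT were above 0, and 1 of the 10 passed the test. Differences were taken on log2(FPKM + 1) with the diet class in the model and tested by limma, with p adjusted over all 33724 genes. Since the 10 genes vary together, a count of them, here and for diet, is not a count of independent results. In HBx,Src(p53-) fish, prss59.1 rose by 3.84 ± 0.80 on the log2 scale (SE, 4 libraries against 4, adjusted p = 0.0494, limma), 1 of 10 called where 0.617% of all genes were called. The next was ctrl, with a difference of 3.01 ± 0.63 and an adjusted p of 0.0514. The 10 differences lay between 1.19 and 3.84, with a median of 2.76 (2.71 without cel.2), against 0.23 for all genes that averaged at least 1 FPKM, and 10 of 10 had an unadjusted p under 0.05, as did 12.9% of all genes. For 7 of the 10 (amy2a, cel.2, ctrl, ela2l, ela3l, prss1, and prss59.1), all 4 HBx,Src(p53-) libraries lay above all 4 WT libraries, as did those of 4.52% of all genes. Such shares without overlap, here and below, are over all 33724 genes. A gene listed at 0 in any library of the upper group cannot count toward them, which lowers them. The call of prss59.1 was lost in 15 of 16 fits with 1 library left out, all but that without the HBx,Src(p53-) DIO library 2, with adjusted p between 0.0227 and 0.148, and under both scalings tried. Without the 3 libraries highest in the enzyme genes, an alternative chosen after the values were seen, 0 of 10 were called and the median was 1.63.

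In HBx(p53-) fish, 0 of the 10 genes passed the test against WT, where 0.231% of all genes did. The differences lay between 0.79 and 3.29, with a median of 2.62 (2.57 without cel.2), against -0.11 for all genes that averaged at least 1 FPKM. The highest, that of cel.2, depends on the pseudocount of 1, as do in part those of other genes near 0 in WT. The smallest adjusted p was 0.0765, for ctrl, which differed by 3.11 ± 0.63 (limma). An unadjusted p under 0.05 was found for 8 of 10, against 7.67% of all genes, and for 7 of 10 (amy2a, cel.1, cel.2, ctrl, ela2l, ela3l, and prss59.1) all 4 HBx(p53-) libraries were above all 4 WT libraries, against 1.93% of all genes. Without the 3 highest libraries, the median was 2.18.

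In Src(p53-) fish, 0 of 10 were called against WT, where 0.0682% of all genes were. All 10 differences were above 0, between 0.10 for cpa1 and 1.64 for ela2l, with a median of 1.03, against 0.06 for all genes that averaged at least 1 FPKM. For amy2a and ela2l the unadjusted p was under 0.05, 2 of 10 against 6.48% of all genes, and for 0 of 10 did the types not overlap, against 1.76% of all genes. With 1 library left out, 0 to 2 of 10 had such a p, and the median was 0.67 without the Src(p53-) NOR library 2. The 3 comparisons share the same 4 WT libraries, which were among the 5 lowest in the sum.

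Set by transgene, the 8 libraries with Src against the 8 without it gave 0 calls among the 10 genes, where 0.083% of all genes were called by limma. WT fish stand only on the side without Src, so the p53 difference is partly mixed into this comparison. The same holds for HBx below and for the diet effect by Src. An unadjusted p under 0.05 was found for 0 of 10, against 10.3% of all genes, and 0 of 10 were without overlap, against 0.0623%, with differences between 0.23 and 1.2 and a median of 0.63. The smallest adjusted p was 0.497, for prss59.1. Without the HBx,Src(p53-) DIO library 2, 5 of 10 had an unadjusted p under 0.05, against 9.91% of all genes, 0 were called, and the median was 0.97, while without the DIO library 1 of that type it was 0.38. The same comparison for HBx was added after the values were seen and is no independent support for the values above. It called 0 of 10, against 0.142% of all genes. The differences lay between 0.85 and 3.09, the latter for cel.2, where it depends on the pseudocount of 1. Their median was 1.98, and 10 of 10 had an unadjusted p under 0.05, against 7.96% of all genes. The smallest adjusted p of this comparison was 0.0537, for ctrl, with a difference of 2.48 ± 0.45 (limma).

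**Figure D4:**
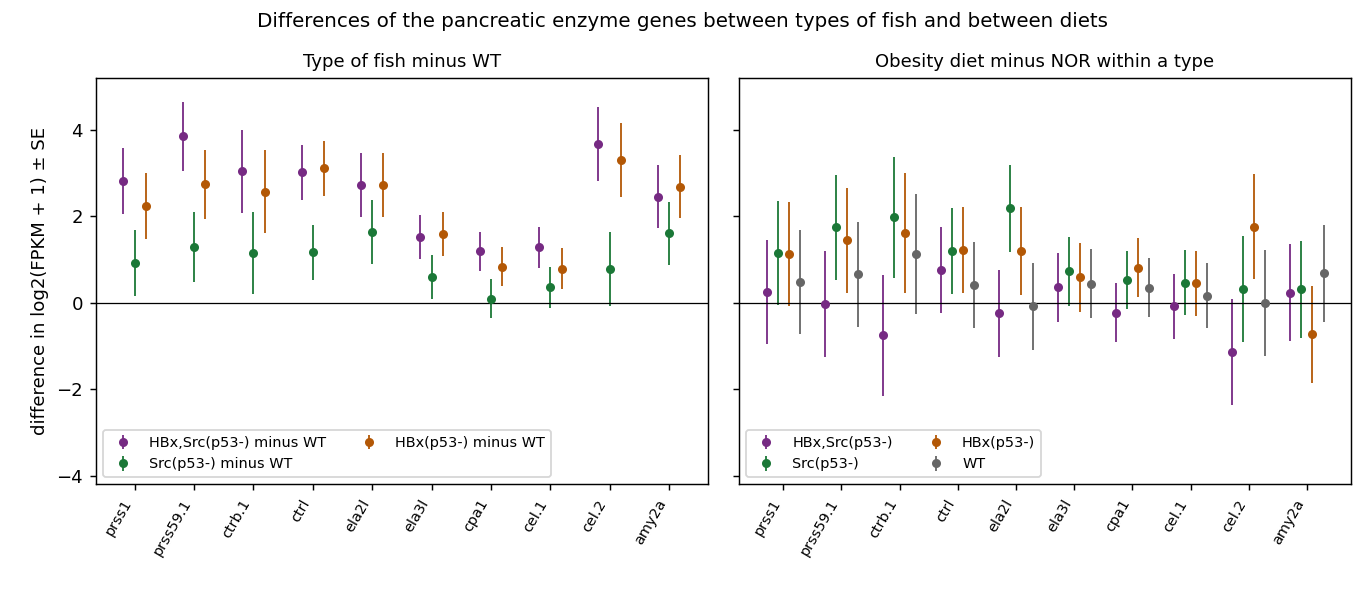
Difference in log2(FPKM + 1) with its standard error (y axis) for each of the 10 enzyme genes (x axis), on the left for each transgenic type minus WT and on the right for the obesity diet minus NOR within each type. On the left 1 point, prss59.1 in HBx,Src(p53-) at 3.84, passed the test and on the right none did. The point of cel.2 against WT depends on the pseudocount of 1, since cel.2 is listed at 0 in all WT libraries. Points of other genes near 0 in WT depend on it in part.

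No enzyme gene passed the test for diet. Over all types together, the obesity diet was above NOR for 10 of 10 fitted differences, between 0.12 for amy2a and 0.99 for ctrb.1, with a median of 0.64, against -0.10 for all genes that averaged at least 1 FPKM. None was called (0 of 10, and 0% of all genes), 0 had an unadjusted p under 0.05, against 4.23% of all genes, and the smallest adjusted p was 0.822 (limma, 8 libraries against 8). The largest relative to its error was ctrl, at 0.89 ± 0.45. The 8 obesity libraries and the 8 NOR libraries overlapped for all 10 genes, as for all but 0.00297% of genes with obesity on top. Single libraries moved these values, since without the HBx,Src(p53-) DIO library 2 the median was 0.87, and 6 of 10 had an unadjusted p under 0.05, against 3.08% of all genes, with 0 called. Without the DIO library 1 of that type the median was 0.42, and 0 of 10 had such a p.

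Within Src(p53-) fish, 0 of 10 were called, where 0.0771% of all genes were, and 0 had an unadjusted p under 0.05, against 8.6% of all genes. The differences were between 0.32 and 2.18, with a median of 0.93, against -0.34 for all genes that averaged at least 1 FPKM, and the largest was that of ela2l, 2.18 ± 1.01 (adjusted p = 0.564, limma). For 7 of 10 genes both obesity libraries lay above both NOR libraries, against 7.28% of all genes. The median became 0.41 when the low Src(p53-) NOR library 1 was left out and 1.47 when the NOR library 2 was.

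Within HBx(p53-) fish, 0 of 10 were called, where 0.0237% of all genes were, 0 had an unadjusted p under 0.05, against 4.41%, the median was 1.16, and 9 of 10 differences were above 0, amy2a being the exception at -0.73 ± 1.12. For 1 of 10, cel.2, both obesity libraries lay above both NOR libraries, against 9.6% of all genes. The median became 0.15 when the FAT library was left out and 1.91 when the DIO library was. It became 0.38 on leaving out the HBx(p53-) NOR library 1 and 2.01 on leaving out the NOR library 2. Within WT fish, 0 of 10 were called, where 0.0712% of all genes were, 0 had an unadjusted p under 0.05, against 4.42%, and the median was 0.42. It was -0.02 without the WT FAT library, 0.82 without the DIO library, and 0.24 without the NOR library 2. For cpa1, ctrb.1, and ela3l both WT obesity libraries were above both NOR libraries, 3 of 10 against 9.47% of all genes.

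Within HBx,Src(p53-) fish, where both obesity libraries were DIO, 4 of 10 differences were above 0 and 6 below, with a median of -0.06, and 0 of 10 were called, where 0.335% of all genes were. An unadjusted p under 0.05 was found for 0 of 10, against 11% of all genes, and both DIO libraries were above both NOR libraries for 0 of 10, against 15.1%. The DIO libraries held both the highest and the lowest value of the type for most genes, as library 1 was highest for 9 of 10 and library 2 lowest for 9 of 10. Without DIO library 1 the median difference was -1.21, and without DIO library 2 it was 1.28. Leaving out a NOR library gave -0.90 for library 1 and 0.86 for library 2. The difference in diet effect between the types with Src and those without was called for 0 of 10 genes, where 0.0356% of all genes were, and 0 had an unadjusted p under 0.05, against 9.43%, with a median of -0.11, values between -1.29 and 0.41, and a smallest adjusted p of 0.721 (limma). With 1 or 2 libraries in each group of type and diet, the standard errors of the diet differences within a type were between 0.68 and 1.39 on the log2 scale.

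The FAT library, 1 in each type that has it, was the highest of its type for most of the enzyme genes. In Src(p53-), HBx(p53-), and WT fish, the FAT library was above the other 3 libraries of its type for 7, 9, and 8 of the 10 genes, against 17.3%, 14.4%, and 34% of the genes that averaged at least 1 FPKM. For 6 of 10 (cel.1, cpa1, ctrb.1, ela2l, ela3l, and prss59.1) this held in all 3 types, against 159 of those 12319 genes, or 1.29%. With FAT alone set against NOR, the median difference was 1.03 in Src(p53-), 1.91 in HBx(p53-), and 0.82 in WT, and 0 of 10 were called in each, where 1.34%, 1.09%, and 2.18% of all genes were. Over these types together the 3 FAT libraries gave a median of 1.22, with 5 of 10 at an unadjusted p under 0.05, against 3.31% of all genes, and 0 of 10 called, against 0% of all genes (limma). With DIO alone the medians within the types were 1.09, 0.15, and -0.02, so that in Src(p53-) the median for FAT was not above that for DIO. The Src(p53-) FAT library was also the lowest of its type for amy2a, at 2.05 FPKM, and was listed at 0 for cel.2. The counts for FAT against all other libraries were added after the values were seen and carry no test. The 10 genes vary together and each type has 1 FAT library, so a count of genes holds no independent results on the diet. Of the 6 genes named, cel.1 averaged 0.971 FPKM, below the minimum of the genes it is set against.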

How the data were processed

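The authors aligned reads to GRCz10 (danRer10) with HISAT2 and assembled and quantified transcripts with StringTie and Ballgown. The submitters' processing notes name FastQC 0.11.5, HISAT2 2.1.0, SAMtools 1.7, StringTie 1.3.4d, and R 3.5.3. The deposited values are FPKM for 35885 entries in 16 libraries, used as they are, without counts. A value of 0 carries no limit. The study counts 16 fish for sequencing, hence 1 fish for each library. The p-values measure the spread of these fish around the fitted model. Outside HBx,Src(p53-), an obesity group is 1 DIO and 1 FAT library, so this spread also holds any difference between those diets. In the additive model it also holds any difference in diet effect between types.

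Symbols came from the entries or from RefSeq transcript names (GRCz12tu, names and gene order only), and each of the 10 members had 1 entry. Values were log2(FPKM + 1), tested with limma 3.58.1 (lmFit, eBayes with trend, R 4.3.3) over 33724 genes with Benjamini-Hochberg adjustment at 0.05. Diet within a type, and the difference between types with and without Src, used 8 groups of type and diet class. Types of fish and the common diet effect used an additive model. Other steps used Python 3.11.15 with pandas 2.3.3. The limma step was tested on simulated data.

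The members, lists, and tests were chosen with earlier results of these data known. Named genes are the members, matched acinar genes and factors above 0, the 10 named genes most correlated with the members, and the highest or deciding genes of other lists. Alternatives were a pseudocount of 0.1, a minimum mean of 1 FPKM, scaling to a common sum, quantile normalization, DIO or FAT alone, leaving out each library, and a replicate block. The values of 1 further acinar gene are not reported here.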

Additional observations from a re-analysis of the deposited data

Results flagged for a closer look

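In groups of 4 libraries (a type of fish) or 8 (a diet class), 66 sets of values of the enzyme genes and their sum, as log2(FPKM + 1), were searched for a library far from the rest, by its gap to the nearest library as a share of the whole range. Chance marks about 1 set in 20, and 5 of 66 were marked. Within Src(p53-), cpa1 was far higher in the FAT library (1.08 FPKM, gap 0.835 of the range) and prss1 far lower in the NOR library 1 (0.608 FPKM, gap 0.961). Within WT, amy2a was far higher in the FAT library (2.50 FPKM, gap 0.865). Among the 8 NOR libraries, the HBx,Src(p53-) library 2 stood apart for cel.1 (3.81 FPKM, gap 0.576) and cpa1 (3.83 FPKM, gap 0.597).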

How the results depend on the processing

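The number of enzyme genes called in HBx,Src(p53-) minus WT, 1 as reported, was 3 with a pseudocount of 0.1 and 3 with genes under a mean of 1 FPKM left out (cel.1 among them), 0 after scaling to a common sum, 0 after quantile normalization, and 0 without the 3 highest libraries. For prss59.1 the difference was 3.76 (adjusted p = 0.0665) after scaling and 3.55 (adjusted p = 0.0894) after quantile normalization, and between 3.32 and 4.63 with 1 library left out, where 0 to 3 genes were called (3 without the HBx,Src(p53-) DIO library 2). The count for HBx(p53-) minus WT, 0 as reported, was 2 with a pseudocount of 0.1, 1 with the filter, and 0 to 1 with 1 library left out, and for types with HBx against those without, 2, 3, and 0 to 3. All other counts of called genes were 0 under every alternative run. Replicate numbers are shared between groups only as numbers, since deviations of same-numbered libraries correlated between -0.26 and 0.22 in 10 pairs of groups, and 4 of 10 were over 0.1. In the 10 numbered libraries the types were compared on NOR alone, with 2 libraries against 2, unlike the comparison reported above. With the replicate block, 0 genes were called there in HBx,Src(p53-) minus WT (prss59.1 4.19, adjusted p = 0.574, limma). Without the block on the same libraries it was also 0 (adjusted p = 0.470, limma).

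The median difference of the enzyme genes for diet within HBx,Src(p53-) was between -1.21 and 1.28 with 1 library left out, and 0.01 after quantile normalization. The median for the difference in diet effect between types with and without Src, -0.11 as reported, was 0.09 after quantile normalization, 0.51 with DIO alone, and between -0.80 and 0.61 with 1 library left out. With a pseudocount of 0.1 the diet median was 1.63 in Src(p53-) and 0.97 in WT. Medians of the types minus WT kept their direction under every alternative run. With a pseudocount of 0.1 they were 3.40 in HBx,Src(p53-), 1.59 in Src(p53-), and 3.15 in HBx(p53-), against 2.76, 1.03, and 2.62 as reported. The lowest of the differences in HBx,Src(p53-) was then 2.50, against 1.19 as reported, so cel.2 was not the only gene affected. The median pairwise r was between 0.86 and 0.90 with 1 library left out and 0.72 in Src(p53-) and WT alone. The cause of these changes was not tested. FPKM give no counts, so the precision of the low genes, such as cel.1, cpa1, and ela3l, is unknown.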
